A study of Mus musculus with 8 samples.

Results

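The D cyclins, their partner kinases and the inhibitors that act on them were followed as 10 genes, Ccnd1, Ccnd2, Ccnd3, Cdk4, Cdk6, Cdkn1a, Cdkn1b, Cdkn1c, Cdkn2c and Cdkn2d, among the 31053 genes of the deposited single-cell tables. The genes were chosen by name, and all 10 were in both tables. Their levels were read in cycling progenitors, radial-glia-like cells, early and late neuroblasts, astroglia (stem-like astroglia and astrocytes) and vascular cells (endothelial and mural), populations that were defined by other marker genes.

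The cells were Nestin-GFP-positive cells sorted from the dentate gyrus of 8-week-old male mice that carried a transgene in which Nestin regulatory sequences drive GFP. Mice had either a sham craniotomy (Control) or a unilateral controlled cortical impact (TBI), and the dentate gyrus of the operated side was taken 15 days after surgery. All groups therefore shared the transgene, the sort and the opening of the skull. Cells of several animals were pooled into 1 library for each condition, so the animals could not be separated. The labels list 4 animals for each condition, whereas the study's methods give other numbers. No test between conditions was possible, and every interval below is a 95% interval for counting error only. PCR duplicates were collapsed by unique molecular identifiers (UMIs), and a UMI counts 1 captured molecule whatever the length of its gene, so that levels of different genes are compared here as captured molecules, without correction for how well each is captured.

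After filtering, 3048 Control cells with 24629018 UMIs and 5033 TBI cells with 31501853 UMIs remained, with a median of 6933 and 5676 UMIs per cell. The libraries shared 3 cell barcodes. The 5 classes held 5386 of the 8081 cells, and 353 cells lay in clusters that could not be named. There were 169 Control and 173 TBI cycling progenitors, 150 and 238 radial-glia-like cells, 155 and 290 early neuroblasts, 323 and 544 late neuroblasts, 87 and 43 stem-like astroglia, 723 and 701 astrocytes, 263 and 570 endothelial cells, and 269 and 688 mural cells. The labels were given by their markers, so marker levels are no separate check on them. The radial-glia-like cluster had Ung and the replication gene Mcm3 among its leading genes, so the name does not stand for resting cells. In the first clustering, 137 cells in a cluster led by Ung, Uhrf1 and Hells were named cycling progenitors. Radial-glia-like cells numbered 239 there, against 388 after the lineage cells were clustered again. The summed level of 10 proliferation markers was 6134 and 5922 counts per 1000000 UMIs (CPM) in cycling progenitors of Control and TBI. It was 449 and 463 CPM in radial-glia-like cells. Other lists separated less: without called doublets, the 10 radial-glia-like markers summed to 2533 and 2362 CPM in radial-glia-like cells. In mural cells they summed to 2451 and 1650 CPM. Also without called doublets, radial-glia-like cells held 2993 and 2900 CPM of early neuroblast markers. Their astrocyte markers summed to 2169 and 2221 CPM, against 21100 and 19557 CPM in stem-like astroglia. Radial-glia-like is thus the name of a marker class, and whether these cells are stem cells or neurogenic progenitors was not tested. Other cell types could be seen in some populations. Radial-glia-like cells of TBI held 868 CPM of oligodendrocyte markers and 273 CPM of mural markers, against 180 and 16.9 CPM in Control, and 225 and 52.7 CPM in TBI once called doublets were removed. Their part in the values below was not tested.

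D cyclins bind CDK4 and CDK6 and, by starting the phosphorylation of the retinoblastoma protein (Rb), release E2F factors that switch on the genes of S phase, such as cyclin E and the replication licensing factors. The INK4 inhibitors (p18, encoded by Cdkn2c, and p19, encoded by Cdkn2d, among them) bind CDK4 and CDK6 and keep D cyclins away. The Cip/Kip inhibitors p21 (Cdkn1a), p27 (Cdkn1b) and p57 (Cdkn1c) bind cyclin-CDK complexes and block CDK2 most strongly, and p57 in particular is known for holding adult hippocampal stem cells in quiescence. Much of this control acts on protein stability and phosphorylation, which RNA counts do not show.

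The INK4 pair was the only family of the 4 in which every member was called higher in cycling progenitors than in radial-glia-like cells, and its promoters are therefore shown first. They are RefSeq windows on GRCm38.p6 running from 250 bases before to 50 bases after an annotated start, read 5′ to 3′ on the gene's strand. Capitals mark each match, on either strand, to the GC box GGGCGG or the CCAAT box CCAAT. Cdkn2c (minus strand, chr4:109660876-109667189) had windows at 2 starts and Cdkn2d (minus strand, chr9:21288410-21291407) at 1.
Cdkn2c, chr4:109666707-109667006: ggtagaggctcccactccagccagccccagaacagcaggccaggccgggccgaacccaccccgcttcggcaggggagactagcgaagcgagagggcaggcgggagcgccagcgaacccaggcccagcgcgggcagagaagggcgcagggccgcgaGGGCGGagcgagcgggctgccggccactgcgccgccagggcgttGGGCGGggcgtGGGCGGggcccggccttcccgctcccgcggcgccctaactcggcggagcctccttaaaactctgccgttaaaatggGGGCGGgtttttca
Cdkn2c, chr4:109665323-109665622: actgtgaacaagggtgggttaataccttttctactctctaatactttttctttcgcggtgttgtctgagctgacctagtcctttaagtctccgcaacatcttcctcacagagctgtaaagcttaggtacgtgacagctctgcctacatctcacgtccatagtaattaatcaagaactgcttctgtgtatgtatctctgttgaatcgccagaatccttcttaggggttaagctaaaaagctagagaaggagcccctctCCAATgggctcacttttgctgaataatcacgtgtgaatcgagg
Cdkn2d, chr9:21291160-21291459: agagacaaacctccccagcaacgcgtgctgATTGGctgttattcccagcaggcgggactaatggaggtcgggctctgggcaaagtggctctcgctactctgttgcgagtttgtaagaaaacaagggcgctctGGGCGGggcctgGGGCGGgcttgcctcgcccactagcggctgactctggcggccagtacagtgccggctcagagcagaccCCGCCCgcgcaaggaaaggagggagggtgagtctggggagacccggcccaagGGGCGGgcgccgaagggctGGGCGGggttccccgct
The first Cdkn2c window held 4 GC boxes and no CCAAT box, the second held 1 CCAAT box and no GC box, and the Cdkn2d window held 5 GC boxes and 1 CCAAT box. Among 32851 promoter windows of the same length, 35.7% held a GC box and 37.4% a CCAAT box. The E2F letters TTTCCCGC, TTTCGCGC, TTTGCCGC and TTTGGCGC, present in 2.26% of all windows, and the cell cycle homology letters TTTGAA, present in 17.9%, were in none of the 10 windows that the table held for 7 of the members. The table held no window for Ccnd1, Ccnd2 and Cdkn1c.

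Ccnd2 (chr6:127125162-127152193, minus strand) was the most abundant member in radial-glia-like cells, cycling progenitors and early neuroblasts. In late neuroblasts Cdk4, at 412 and 383 CPM, and Cdkn1b, at 368 and 361 CPM, were more abundant. Ccnd2 differed in steps between the populations of the neurogenic lineage. It stood at 3532 CPM (interval 3452 to 3614) in Control and 3197 CPM (3130 to 3265) in TBI in radial-glia-like cells, at 1885 and 1812 CPM in cycling progenitors, at 1262 and 1151 CPM in early neuroblasts and at 283 and 272 CPM in late neuroblasts. This order is one of level, as no order of the lineage was derived here. The 4 populations kept it in both libraries, and the ranges over the 2 libraries did not overlap between neighbours. Stem-like astroglia, at 281 and 222 CPM, overlapped with late neuroblasts and with mural cells, at 301 and 172 CPM. Astrocytes had 88.5 and 78.7 CPM and endothelial cells 82.3 and 65.7 CPM, and the oligodendrocytes, used as a population in which free RNA should give most of the signal, had 15.3 and 14.5 CPM.

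Ccnd1 (chr7:144929931-144939925, minus strand), the D cyclin most often linked to growth factor signals, was far less abundant than Ccnd2 in the neurogenic lineage and had another order. Outside the 5 classes it was highest in oligodendrocyte precursors, at 259 and 465 CPM from 28 and 56 cells, and in microglia, at 217 and 118 CPM. Within them it led in radial-glia-like cells, with 123 CPM (109 to 140) in Control and 135 CPM (122 to 150) in TBI, followed by endothelial cells with 93.5 and 88.8 CPM. Cycling progenitors held 28.3 and 42.4 CPM, a range that overlapped with those of mural cells (35.6 and 52.0 CPM) and stem-like astroglia (38.9 and 24.0 CPM). Early neuroblasts had 4.80 and 8.73 CPM and late neuroblasts 3.38 and 3.07 CPM, next to 2.63 and 3.52 CPM in oligodendrocytes.

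Ccnd3 (chr17:47505051-47599691, plus strand), the third D cyclin, had its highest levels outside the neurogenic lineage. It was highest in endothelial cells, at 111 and 120 CPM, then in mural cells at 89.9 and 86.7 CPM and in astrocytes at 55.9 and 54.9 CPM. Within the neurogenic lineage its values had the order of Ccnd2 in both libraries, but the counting intervals of neighbours overlapped in each. The ranges over both libraries overlapped between cycling progenitors and early neuroblasts. Radial-glia-like cells had 40.0 and 35.0 CPM, cycling progenitors 28.7 and 21.4 CPM, and early neuroblasts 22.9 and 18.9 CPM. Late neuroblasts had 12.6 and 15.8 CPM, close to the 11.2 CPM of oligodendrocytes in both libraries.

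Cells differ in depth, so the share of cells with at least 1 UMI was also taken after every cell had been thinned to 2000 UMIs, with shallower cells left out. Over both libraries, Ccnd2 was then seen in 96.6% of 388 radial-glia-like cells, 77.3% of cycling progenitors, 79.8% of early neuroblasts and 34.0% of late neuroblasts, against 0.824% of 1577 oligodendrocytes, whose median depth before thinning was 8833 UMIs against 11984 in radial-glia-like cells. Ccnd1 was seen in 17.3% of radial-glia-like cells (13.6% to 21.4%; 46.6% without thinning), 5.31% of cycling progenitors and 11.4% of endothelial cells. In early neuroblasts the Ccnd1 share was 1.57% (0.635% to 3.21%), next to 0.824% (0.440% to 1.41%) in oligodendrocytes. In Control 0 of 155 early neuroblasts held a Ccnd1 UMI at this depth, which allows up to 1.94% of cells with a UMI at 2000 UMIs, and 7 of 155 did before thinning. In TBI 7 of 290 held one, and the level there, 8.73 CPM (5.59 to 12.99), lay above the 3.52 CPM (2.39 to 4.99) of oligodendrocytes, whereas in Control the intervals of 4.80 and 2.63 CPM overlapped.

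Ccnd1 in radial-glia-like cells came almost wholly on top of Ccnd2. Of the thinned cells with a Ccnd1 UMI, 27 of 27 in Control and 37 of 40 in TBI also held Ccnd2. Ccnd2 alone was in nearly every cell, however, and the product of the separate shares, 17.5% and 16.2%, was close to the observed 18.0% and 15.5% with both. Of the endothelial cells 7 in Control held both, 22 only Ccnd1 and 14 only Ccnd2, and in TBI these were 9, 53 and 33 cells. The share with both was 2.79% and 1.65%, above the product of the separate shares, 0.967% and 0.880%. It rests on few cells, and no interval was taken for it. Both genes were highest in the endothelial cluster led by Gkn3, Ccnd1 at 130 and 126 CPM and Ccnd2 at 168 and 123 CPM. The part of such clusters in the joint share was not tested. At 2000 UMIs most endothelial cells showed no D cyclin at all, 67.7% in Control and 64.7% in TBI, against 2.67% and 1.68% of radial-glia-like cells.

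The partner kinases differed less between the 4 populations of the neurogenic lineage than Ccnd2 did, and separated these populations from the astroglia and vascular cells. Cdk4 (chr10:127063534-127067920, plus strand) was at 644 and 601 CPM in radial-glia-like cells, 667 and 574 CPM in cycling progenitors and 599 and 550 CPM in early neuroblasts, and these 3 populations overlapped with their neighbours in the order. Late neuroblasts had 412 and 383 CPM. Stem-like astroglia (66.3 and 108 CPM), astrocytes (47.3 and 61.0 CPM), endothelial cells (71.8 and 77.7 CPM) and mural cells (72.1 and 91.4 CPM) were far lower. Oligodendrocytes had 50.4 and 54.1 CPM. The counting intervals of astrocytes overlapped with theirs in both libraries, and that of stem-like astroglia did in Control only. Those of endothelial and mural cells lay above them in both libraries.

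Cdk6 (chr5:3341485-3531008, plus strand) had the order of Ccnd2 in these populations, with 575 and 498 CPM in radial-glia-like cells and 425 and 399 CPM in cycling progenitors. Early neuroblasts had 317 and 291 CPM and late neuroblasts 163 and 147 CPM, again with no overlap between neighbours. Among the other populations Cdk6 was highest in immature granule neurons, at 118 and 115 CPM, followed by mural cells with 88.2 and 107 CPM. Endothelial cells had 13.5 and 19.9 CPM. In mural cells Cdk6 made up 55.0% and 53.9% of the UMIs of the 2 kinases, in radial-glia-like cells 47.2% and 45.3%, and in astrocytes 10.1% and 5.66%.

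**Figure D1:**
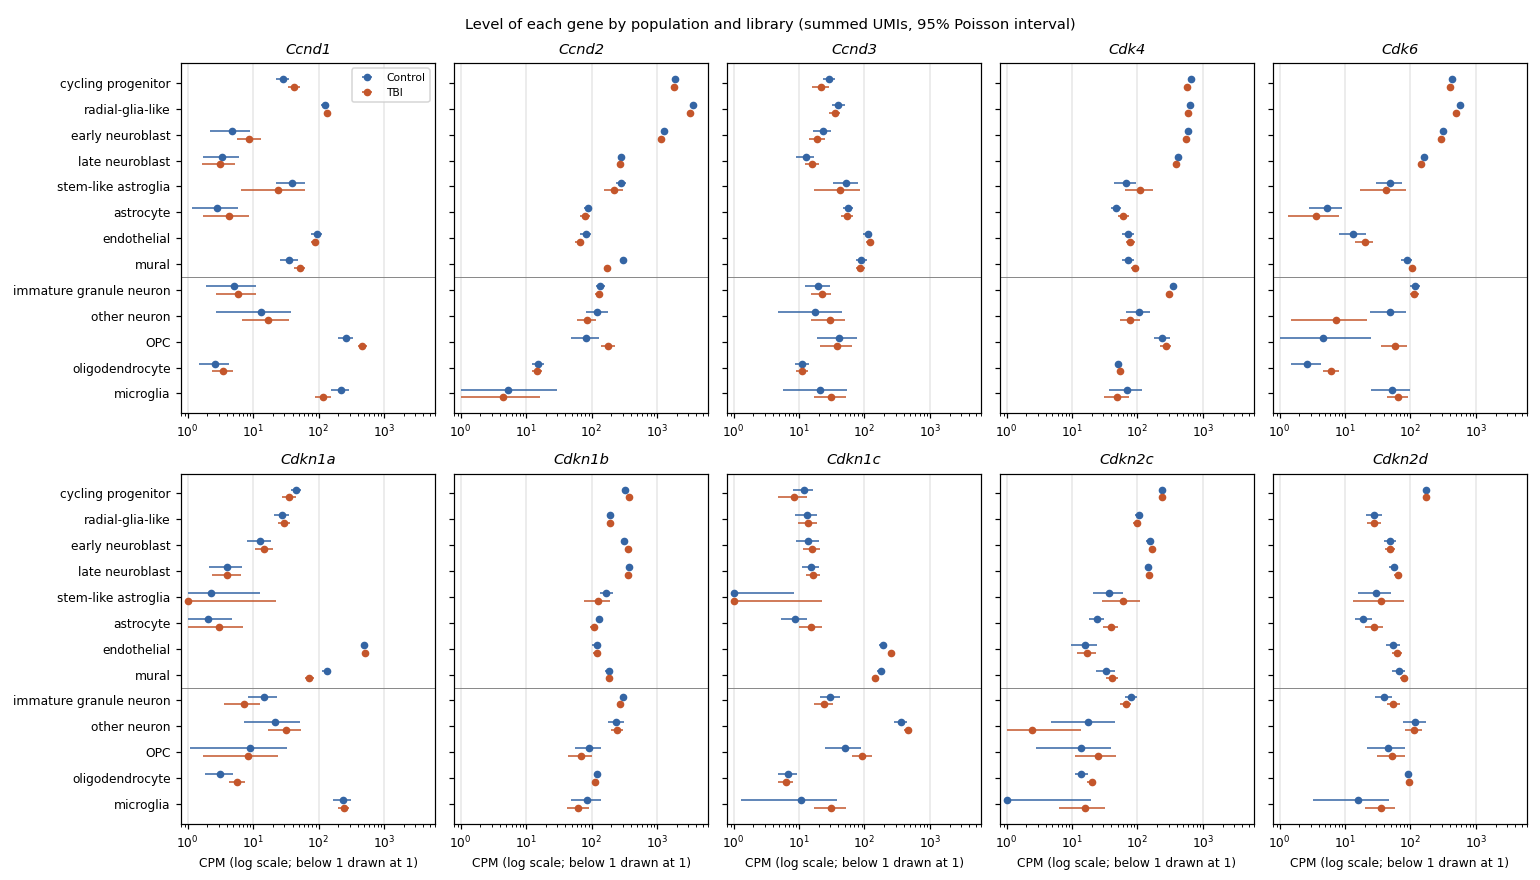
Level of each of the 10 genes in CPM by population and library, with 95% Poisson intervals for counting error, on a log axis where levels below 1 CPM are drawn at 1. Ccnd2 goes from 3532 and 3197 CPM in radial-glia-like cells to 283 and 272 CPM in late neuroblasts, whereas Cdkn1a is highest in endothelial cells at 491 and 520 CPM.

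The 3 Cip/Kip inhibitors had different orders. Cdkn1a (p21, chr17:29090976-29100727, plus strand), a target of p53, was highest in endothelial cells, at 491 CPM (454 to 530) in Control and 520 CPM (490 to 552) in TBI. Mural cells had 135 and 72.2 CPM, cycling progenitors 45.2 and 35.6 CPM, and radial-glia-like cells 27.5 and 29.8 CPM. Late neuroblasts, at 4.00 and 4.02 CPM, were near the 3.16 and 5.67 CPM of oligodendrocytes. In stem-like astroglia 1 UMI was counted in Control and none in TBI, which at 3 counts allows up to 18.0 CPM in the latter. After thinning, Cdkn1a was seen in 53.6% of endothelial cells and 6.78% of cycling progenitors, against 0.698% of oligodendrocytes. The summed level of 11 other p53 targets was 1447 and 1925 CPM in endothelial cells and 2092 and 1858 CPM in mural cells. In radial-glia-like cells it was 1272 and 1047 CPM, of which Btg2 alone gave 741 and 483 CPM, so the sum there depends much on 1 gene. Among these populations the order was that of Cdkn1a in TBI, whereas in Control mural cells lay above endothelial cells. The part of p53 in the level of Cdkn1a was not tested.

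Cdkn1b (p27, chr6:134920401-134925513, plus strand), which is known to accumulate as cells leave the cycle, was the most evenly spread inhibitor. It was highest in late neuroblasts (368 and 361 CPM), cycling progenitors (325 and 379 CPM) and early neuroblasts (319 and 357 CPM), which overlapped with each other. Radial-glia-like cells had 192 and 191 CPM, mural cells 184 and 182 CPM, and every other population of the 5 classes between 110 and 169 CPM. Oligodendrocytes, at 119 and 112 CPM, were no background for this gene.

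Cdkn1c (p57, chr7:143458339-143461050, minus strand) was mostly found in vascular cells and in a small neuronal group. Endothelial cells held 189 and 256 CPM and mural cells 177 and 146 CPM, and the only higher level was in the small group of other neurons, 28 and 76 cells, with 356 and 465 CPM. Radial-glia-like cells had 13.02 and 13.8 CPM and cycling progenitors 11.7 and 8.29 CPM, against 6.67 and 6.24 CPM in oligodendrocytes. Late neuroblasts had 15.1 and 16.5 CPM, oligodendrocyte precursors 50.0 and 93.03 CPM, and immature granule neurons had intervals of 20.9 to 41.7 and 17.1 to 33.4 CPM. In stem-like astroglia no UMI was counted in 87 Control and 43 TBI cells, which at 3 counts allows up to 6.86 and 18.0 CPM. Cdkn1c lies in an imprinted domain, and the tables do not separate the parental alleles.

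The INK4 genes peaked in cycling progenitors. Cdkn2c (p18) stood at 235 CPM (218 to 253) in Control and 240 CPM (219 to 262) in TBI there. It was at 154 and 164 CPM in early neuroblasts, 145 and 150 CPM in late neuroblasts and 106 and 98.2 CPM in radial-glia-like cells. The ranges over the 2 libraries did not overlap between neighbours. The counting intervals of early and late neuroblasts did, at 137 to 173 and 133 to 159 CPM in Control and 149 to 180 and 139 to 162 CPM in TBI. Cdkn2d (p19) stood at 171 CPM (156 to 187) and 174 CPM (156 to 193) in cycling progenitors and at only 28.0 and 27.9 CPM in radial-glia-like cells. Early neuroblasts had 49.1 and 49.5 CPM and late neuroblasts 55.4 and 63.5 CPM of Cdkn2d. Vascular cells held little Cdkn2c, 15.7 and 17.1 CPM in endothelial and 33.1 and 40.8 CPM in mural cells, but as much Cdkn2d as neuroblasts, 54.6 and 62.4 CPM and 67.0 and 80.2 CPM. Oligodendrocytes, at 91.8 and 96.3 CPM, held more Cdkn2d than neuroblasts or vascular cells.

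As a share of its family, Ccnd2 supplied nearly all D cyclin molecules of the neurogenic lineage. It made up 95.6% and 94.95% of D cyclin UMIs in radial-glia-like cells, 97.1% and 96.6% in cycling progenitors, 97.8% and 97.7% in early neuroblasts and 94.6% and 93.5% in late neuroblasts. In astrocytes Ccnd2 made up 60.1% and 57.1% and Ccnd3 made up 38.0% and 39.8%. Endothelial cells were the only one of the 8 populations in which no D cyclin made up more than 43.7% of the family: Ccnd1 made up 32.6% and 32.4%, Ccnd2 28.6% and 23.9%, and Ccnd3 38.8% and 43.7%. Among the inhibitors Cdkn1b was the largest part in the 6 neural populations of the 5 classes, from 41.3% in Control cycling progenitors to 71.2% in Control stem-like astroglia, and Cdkn1a was the largest part in endothelial cells, at 56.4% and 53.3%. Cdkn2d made up 21.7% and 20.8% of inhibitor UMIs in cycling progenitors and 7.62% and 7.73% in radial-glia-like cells.

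**Figure D2:**
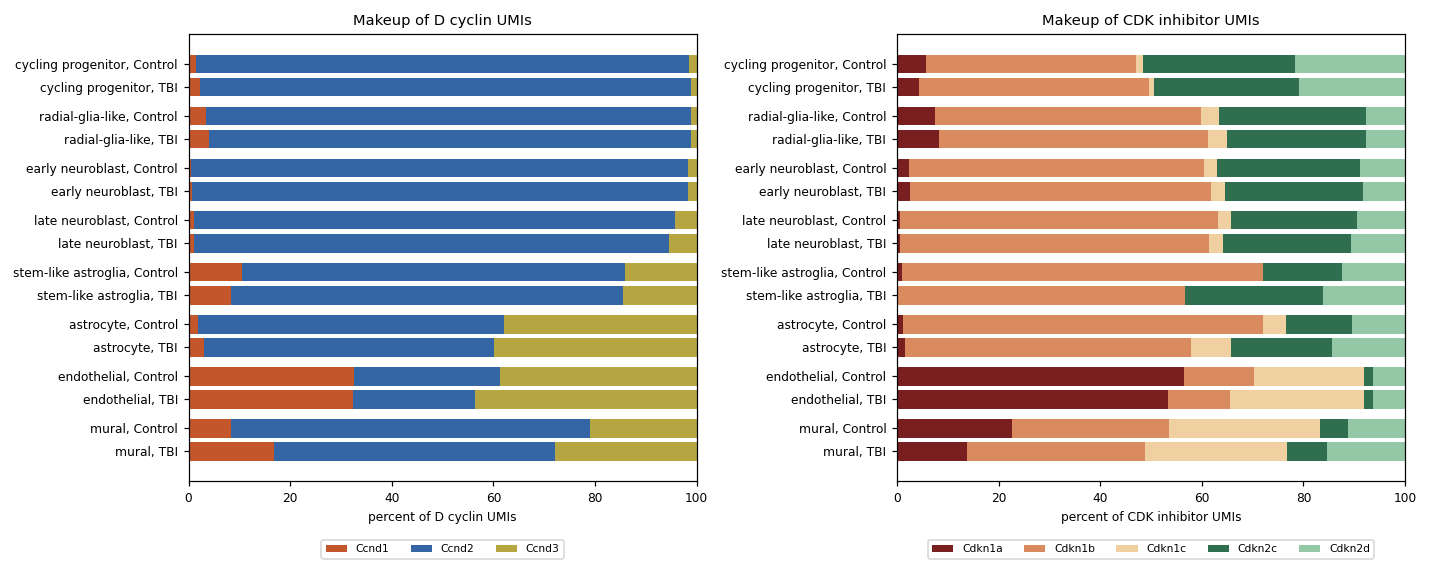
Share of each gene, in percent, in the summed UMIs of the D cyclins and of the 5 inhibitors, by population and library. Ccnd2 fills at least 93.5% of the D cyclin bar in the 4 populations of the neurogenic lineage, and Cdkn1a at least 53.3% of the inhibitor bar in endothelial cells.

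The number of D cyclin UMIs for each UMI of the 5 inhibitors summarised both families. Radial-glia-like cells had 10.1 (9.35 to 10.9) in Control and 9.33 (8.73 to 9.98) in TBI, cycling progenitors 2.47 and 2.24, early neuroblasts 2.35 and 1.96, and late neuroblasts 0.508 and 0.489. Stem-like astroglia were at 1.57 and 1.30, astrocytes at 0.795 and 0.704, mural cells at 0.716 and 0.595 and endothelial cells at 0.330 and 0.281. Oligodendrocytes had 0.124 and 0.122. This is a ratio of RNA molecules and not of active complexes.

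Populations were then set against each other, gene by gene, within each library. A gene was called where it differed by at least 2-fold in the same direction in both libraries and had at least 50 UMIs, and the same rule was run over all genes. The members had no part in the clustering or the markers, but the cells were grouped by the rest of their transcripts, so these are descriptions of populations and not tests. Across 6 contrasts, 16 member values were called, and 14 to 19 were called over the alternatives. The share of all genes is given below for each contrast at the main settings. It is not given for the alternatives, so the range of 14 to 19 has no background beside it.

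Between cycling progenitors and radial-glia-like cells, 2 of 10 members were called higher, where 3.41% of 10361 genes were, and 1 was called lower, where 4.28% were. Cdkn2d was 6.11-fold and 6.24-fold higher in Control and TBI, a log2 difference of 2.61 and 2.64, and Cdkn2c 2.21-fold and 2.44-fold, or 1.15 and 1.29. Ccnd1 was lower, with log2 differences of -2.12 and -1.67. Ccnd2 (-0.91 and -0.82) and Cdkn1b (0.76 and 0.99) did not reach 2-fold, and Cdk4 was level, at 0.05 and -0.07. The median log2 difference was -0.19 over the 10 members and -0.16 over all genes tested. The Cdkn2c, Cdkn2d and Ccnd1 calls held in 14 of 14 alternatives, and without doublets the mean log2 over both libraries was 1.21, 2.70 and -2.11, in place of 1.22, 2.63 and -1.90. Around these members, the E2F and DP factors had 1 of 10 called higher, the repressor gene E2f8, with 50.8 and 40.5 CPM in cycling progenitors against 7.71 and 10.8 CPM. The cyclin E and CDK2 list had 1 of 9 called higher, Cks1b, which codes for a CDK-binding subunit. Of 11 replication licensing and associated genes 1 was called lower, Ung, a uracil-DNA glycosylase, with 25.9 and 22.9 CPM against 135 and 130 CPM. None of the 3 Rb pocket protein genes was called, nor any of 4 genes of D cyclin turnover. All 12 genes of the G2/M list were higher, and 1 of 12 of the S phase list was. The summed level of the S phase list was 2100 and 1831 CPM in cycling progenitors and 1833 and 1618 CPM in radial-glia-like cells. This contrast therefore does not set cycling cells against resting cells.

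From radial-glia-like cells to early neuroblasts, 2 of 10 members were called lower, where 8.08% of 10360 genes were, and none higher, where 3.33% were. Ccnd1 differed by -4.68 and -3.95 on the log2 scale and Ccnd2 by -1.49 and -1.47. Cdkn1a, at -1.10 and -0.997, missed the 2-fold line by little in TBI. Without doublets the mean over both libraries was -4.35 for Ccnd1 and -1.52 for Ccnd2, in place of -4.32 and -1.48. The median over the members was -0.47 and over all genes -0.04. The S phase machinery was lower too: 11 of 11 licensing genes were called lower, as were 12 of 12 S phase genes, 5 of 9 E2F and DP factors and 4 of 9 genes of the cyclin E and CDK2 list. E2f1 was at 28.3 and 30.9 CPM in early neuroblasts against 89.2 and 88.9 CPM, Ccne1 at 8.00 and 7.64 against 30.9 and 30.5 CPM, Ccne2 at 6.93 and 3.64 against 37.6 and 28.7 CPM, and Cdk2 at 8.53 and 8.00 against 43.4 and 48.0 CPM. The licensing factor Cdc6 had no UMI in early neuroblasts of either library, against 43.9 and 46.9 CPM. Of the pocket proteins Rbl1 (p107) was lower, 4.27 and 3.27 against 27.5 and 30.1 CPM, and Rb1 was not called, at 33.1 and 40.4 against 40.5 and 46.5 CPM.

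From early to late neuroblasts 2 of 10 members were called lower, where 2.13% of 10367 genes were, and none higher, where 3.42% were. Ccnd2 differed by -2.16 and -2.08 on the log2 scale, and Cdkn1a, from few UMIs, by -1.68 and -1.89, a call that held in 13 of 14 alternatives and had a mean of -0.98 by the highest marker score. In early neuroblasts, however, 1 Control cell held 10 of the 24 Cdkn1a UMIs and 1 TBI cell held 13 of the 41. No alternative left out these cells alone. Cdk6 lay just inside the line at -0.96 and -0.99. In this step 4 of 9 licensing genes and 2 of 9 genes of the cyclin E and CDK2 list, Cdk2 and Cks1b, were lower, and no E2F or DP factor was called. E2f1 was at 28.3 and 22.9 CPM in late neuroblasts and Rb1 at 41.2 and 47.7 CPM. Late neuroblasts were not uniform: Ccnd2 was at 336 and 339 CPM in their largest cluster, led by Ebf1. It was at 221 and 188 CPM in the larger of the clusters led by Calb2. The Ccnd2 call held in 14 of 14 alternatives.

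Stem-like astroglia differed from radial-glia-like cells in 4 of 10 members, all lower, where 11.6% of 9581 genes were, and none higher, where 11.1% were. Ccnd2 differed by -3.65 and -3.85 on the log2 scale, Cdk6 by -3.58 and -3.57, Cdk4 by -3.28 and -2.48 and Ccnd1 by -1.67 and -2.49. Without doublets the means over both libraries were -3.78, -3.59, -2.89 and -2.13, in place of -3.75, -3.57, -2.88 and -2.08. The median was -1.60 over the members and -0.16 over all genes. All 11 licensing genes, 12 of 12 S phase genes, 5 of 9 of the cyclin E and CDK2 list and 4 of 9 E2F and DP factors were lower. E2f1 had no UMI in stem-like astroglia of either library. Rb1, at 73.2 and 54.0 CPM against 40.5 and 46.5 CPM, was not called. Of the FoxO genes, which code for transcription factors linked to quiescence, Foxo1 was higher, with 119 and 114 against 17.4 and 21.6 CPM, and Foxo6 was lower. The TBI library holds only 43 stem-like astroglia and 4 Ccnd1 UMIs in them.

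Between astrocytes and stem-like astroglia 6 members had enough UMIs, and 1 was lower, Ccnd2 at -1.67 and -1.50 on the log2 scale, where 3.82% of 9058 genes were lower and 5.11% higher. Rb1 was at 114 and 140 CPM in astrocytes, against 73.2 and 54.0 CPM, and was not called.

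Mural and endothelial cells differed in 4 of 10 members. Ccnd2 (1.87 and 1.39 on the log2 scale), Cdk6 (2.71 and 2.43) and Cdkn2c (1.07 and 1.25) were higher in mural cells, where 13.9% of 9979 genes were higher, and Cdkn1a (-1.86 and -2.85) was lower, where 11.1% were. Without the mural cluster led by Acta2, described below, the mean log2 difference of Ccnd2 over both libraries was 0.56, in place of 1.63. The Cdkn2c call held in 12 of 14 alternatives, with a mean log2 difference of 0.96 without integration and 0.97 without the mural cluster led by Kcnj8 and Hspa1a. Foxo1 was the 1 of 3 FoxO genes called lower. Immediate early transcripts, which also mark stress in dissociated cells, were high in both vascular populations, 10015 and 11796 CPM in endothelial cells and 10619 and 14743 CPM in mural cells, against 3743 and 2616 CPM in radial-glia-like cells.

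The cycling progenitors themselves were split by whether the mean of 12 S phase genes or that of 12 G2/M genes was higher in a cell, lists that hold none of the members. The S group held 72 Control and 68 TBI cells and the G2/M group 97 and 105, and 36 of the 342 cells lay within 0.2 of the dividing score, so that the groups are ranges and not types. Cdkn1a was the member that differed most. It stood at 81.2 CPM in the S group and 18.2 CPM in the G2/M group of Control, a ratio of 4.47 (2.95 to 6.96), and at 67.0 and 12.6 CPM in TBI, a ratio of 5.30 (2.96 to 10.1), or 4.35 without doublets. The UMIs were in few cells: 24 of 72 S cells and 13 of 97 G2/M cells of Control held any, and 20 of 68 and 12 of 105 of TBI, and the highest Control cell held 26 of the 131 UMIs. Cdkn1b ran the other way, 236 against 392 CPM in Control and 273 against 456 CPM in TBI, ratios of 0.603 (0.523 to 0.693) and 0.598 (0.511 to 0.698). Ccnd2 was level, with ratios of 1.01 (0.956 to 1.06) and 1.08 (1.01 to 1.15). Of the INK4 genes Cdkn2d had ratios of 0.651 and 0.833, the latter with an interval of 0.668 to 1.04, and Cdkn2c had 0.757 in Control and 1.11 in TBI, on both sides of 1. The clusters of these cells gave another picture for the INK4 genes. Cdkn2d was at 232 and 212 CPM in the cluster led by Hist1h1b, against 103 and 139 CPM in that led by Cdc20. Cdkn2c was at 264 and 307 against 202 and 178 CPM. The direction for the INK4 genes thus depended on how the cells were divided. Cdkn1a was higher in the Hist1h1b cluster than in the Cdc20 cluster in both libraries. It was at 54.2 against 35.2 CPM in Control and at 59.03 against 14.03 CPM in TBI. The Control difference was thus smaller between these clusters than between the S and G2/M groups, so its size also depended on the division. The genes of the next step followed the S group: Ccne1 had ratios of 8.04 and 10.4, Ccne2 9.29 and 9.01, Cdk2 3.75 and 4.29, E2f1 3.57 and 4.88, Rbl1 1.97 and 2.57 and Rb1 1.495 and 1.66.

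**Figure D3:**
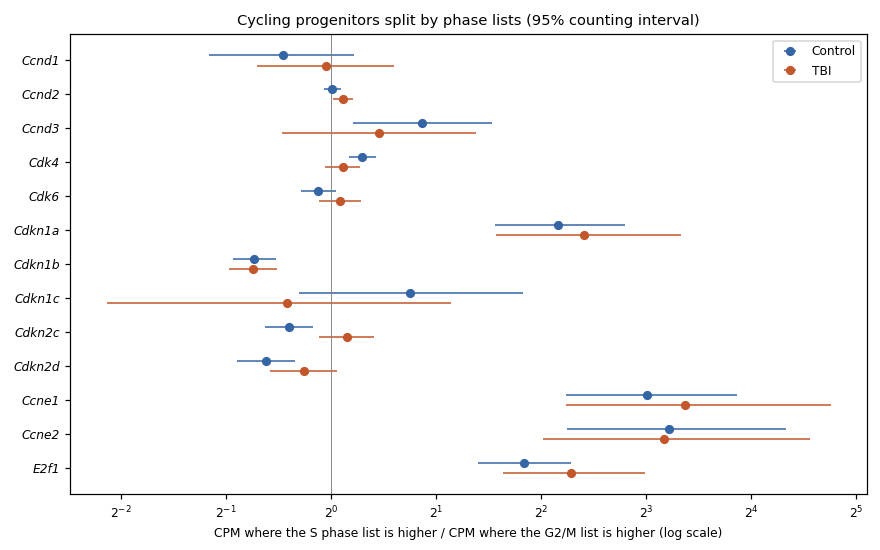
Ratio of the CPM in the S group to the CPM in the G2/M group of cycling progenitors (log axis), by gene and library, with 95% intervals for counting error and a line at 1. Cdkn1a lies right of the line at 4.47 and 5.30, and Cdkn1b left of it at 0.603 and 0.598.

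Control and TBI were then compared within each population, as 1 library against 1 library. A gene was called where it differed by at least 1.5-fold and had at least 50 UMIs, which 65 pairs of member and population did over the 8 populations, and 3 of the 65 were called. In cycling progenitors none of 10 members was called, where 5.61% of 8629 genes were. In radial-glia-like cells none of 10 was (5.79% of all genes), in early neuroblasts none of 9 (5.33%), in late neuroblasts none of 8 (4.2%), in stem-like astroglia neither of 2 (13.9%), and in endothelial cells none of 10 (5.81%). In astrocytes 1 of 6 was called (5.53%) and in mural cells 2 of 10 (16.1%). At this number of members the shares are near those of all genes.

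Within the neurogenic lineage the intervals give the range that counting error leaves for the ratio between these libraries, and they do not bound an effect of TBI. In radial-glia-like cells Ccnd2 was at 0.905 of its Control level in TBI (0.877 to 0.934) and Cdk6 at 0.867 (0.801 to 0.938), whereas the ratio was 0.994 (0.870 to 1.14) for Cdkn1b and 1.09 (0.930 to 1.29) for Ccnd1. Without doublets the log2 TBI over Control of these genes was -0.10 for Ccnd2 in place of -0.14, -0.20 for Cdk6 in place of -0.21, -0.063 for Cdkn1b in place of -0.0086, and 0.17 for Ccnd1 in place of 0.13. Early neuroblasts had ratios of 0.913 (0.865 to 0.963) for Ccnd2, 0.918 (0.849 to 0.992) for Cdk4 and 1.12 (1.01 to 1.24) for Cdkn1b. In cycling progenitors Cdk4 was at 0.861 (0.7997 to 0.926), Cdkn1b at 1.17 (1.06 to 1.28) and Ccnd2 at 0.961 (0.922 to 1.00). Several of these intervals leave out 1, but they cover counting error in 1 library of each condition and hold no variation between animals. Ccnd1 in cycling progenitors came closest to the line, with 28.3 against 42.4 CPM and a log2 difference of 0.58, but 19 of its 87 TBI UMIs lay in 1 cell called a doublet, and the difference was 0.25 without doublets. Cdkn1a in cycling progenitors, with 12 of its 73 TBI UMIs in called doublets, went from -0.35 to -0.59 without them. That is just past the line, in 1 of 14 alternatives.

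Astrocytes held more Cdkn2c in TBI, 39.0 against 24.1 CPM, a ratio of 1.62 (1.12 to 2.35) from 64 and 59 UMIs. The difference lay mostly in 1 of 4 astrocyte clusters, a cluster of few UMIs led by Ttr, a choroid plexus gene, which held 244 of 723 Control and 315 of 701 TBI astrocytes. Cdkn2c was at 25.5 CPM in Control and 67.3 CPM in TBI in that cluster, and at 9.90 and 12.98, 22.7 and 23.1, and 36.8 and 47.3 CPM in the others. Without that cluster the log2 difference was 0.17 in place of 0.70.

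Mural cells held less Ccnd2 in TBI, 172 against 301 CPM, a ratio of 0.570 (0.491 to 0.661), and less Cdkn1a, 72.2 against 135 CPM, a ratio of 0.535 (0.426 to 0.672). Both genes were highest in a cluster led by the smooth muscle gene Acta2, which made up 51 of 269 mural cells in Control and 40 of 688 in TBI. Inside that cluster Ccnd2 was at 604 CPM in Control and 691 CPM in TBI, and Cdkn1a at 320 and 402 CPM. In the cluster led by Atp13a5, 143 and 283 cells, Ccnd2 was at 73.3 and 41.0 CPM and Cdkn1a at 2.09 and 7.93 CPM. A cluster led by Kcnj8 and Hspa1a held 44 Control and 262 TBI cells, with 24654 and 30047 CPM of immediate early transcripts, 93.2 and 126 CPM of Ccnd2 and 64.1 and 48.9 CPM of Cdkn1a. Without the Acta2 cluster the log2 difference was -0.13 for Ccnd2, in place of -0.81, and 0.50 for Cdkn1a, in place of -0.90. Ccnd1 was at 51.1 and 203 CPM in the Acta2 cluster and at 140 and 408 CPM in a small cluster led by Ephx3, of 13 and 22 cells, and its ratio over all mural cells was 1.46 (1.02 to 2.14). The Ephx3 cluster also held 483 and 522 CPM of Ccnd2 and 46.8 and 63.7 CPM of Cdkn1a. Markers of other classes were also unequal in mural cells: without doublets, the 10 astrocyte markers summed to 6009 CPM in Control and 8530 CPM in TBI, and the 10 radial-glia-like markers to 2451 and 1650 CPM. Their part in these differences was not tested.

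**Figure D4:**
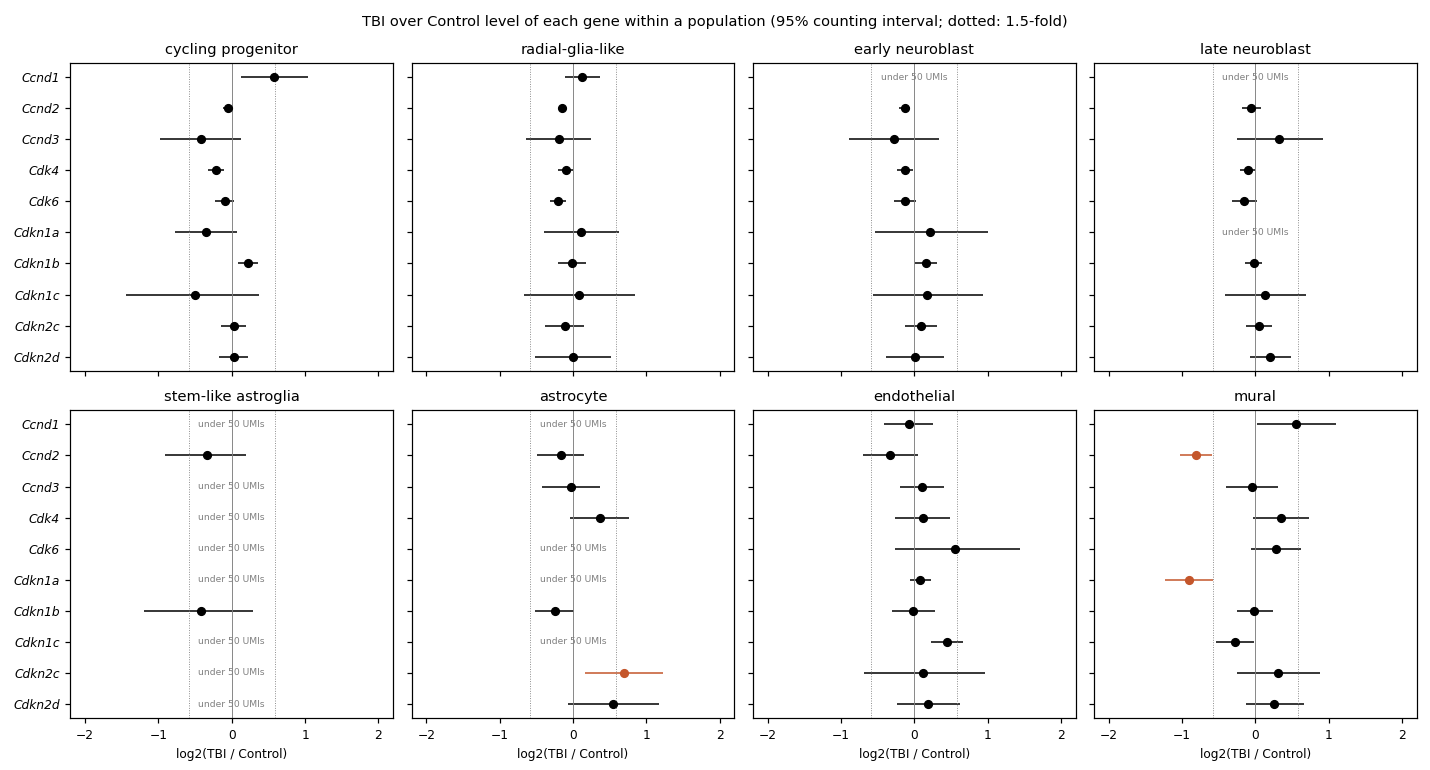
TBI over Control on the log2 scale for each tested pair of member and population, with 95% conditional intervals for counting error and dotted lines at 1.5-fold, pairs under 50 UMIs being left blank. Only Cdkn2c in astrocytes, at 0.70, and Ccnd2 and Cdkn1a in mural cells, at -0.81 and -0.90, lie past the lines.

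In endothelial cells the TBI to Control ratio was 1.06 (0.962 to 1.17) for Cdkn1a and 1.36 (1.17 to 1.58) for Cdkn1c. Cdkn1a varied more between endothelial clusters than between the libraries. It was at 335 and 365 CPM in the cluster led by Slco1a4, at 451 and 446 CPM in that led by Gkn3, and at 600 and 764 CPM in that led by Ctla2a. Immediate early transcripts followed the same order, 3499 and 6646, 8819 and 10385, and 14304 and 18947 CPM, and their part in the level of Cdkn1a was not tested. Ccnd2 and Cdkn1c were both highest in the Gkn3 cluster, at 168 and 123 CPM and at 313 and 446 CPM. Hemoglobin transcripts were 9226 CPM in Control and 1585 CPM in TBI endothelial cells, and their source was not tested.

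**Figure D5:**
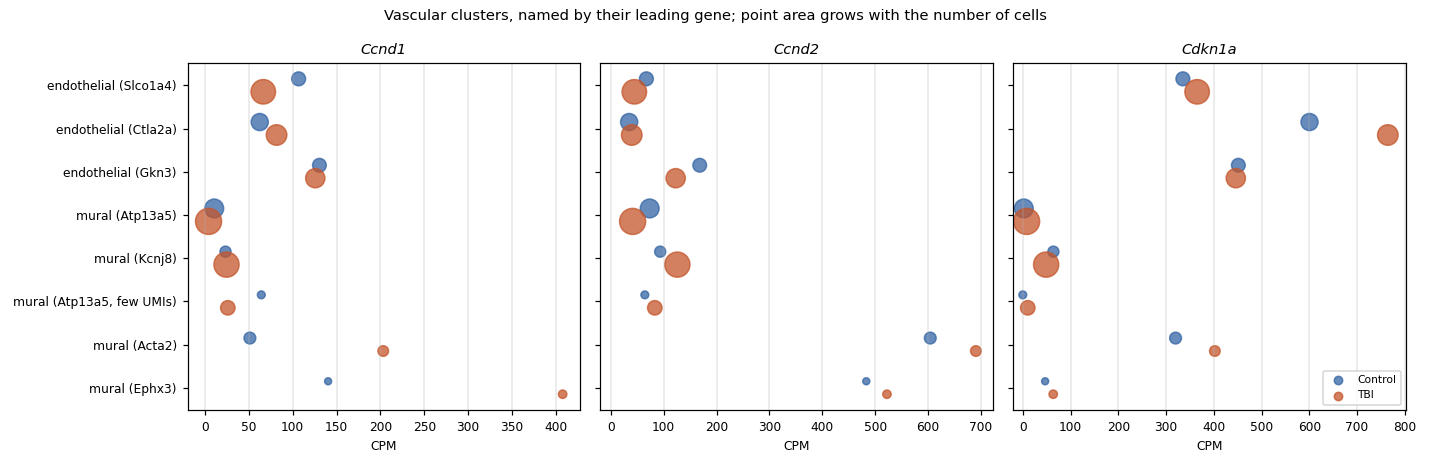
Level in CPM of Ccnd1, Ccnd2 and Cdkn1a in each endothelial and mural cluster, named by its leading gene, by library, with point areas that grow with the number of cells. Ccnd2 stands at 604 and 691 CPM in the Acta2 cluster, which holds 51 Control and 40 TBI cells, and at most 126 CPM in the mural clusters led by Atp13a5 and Kcnj8.

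For each member the genes with the most similar level over 26 points, 13 populations in each of 2 libraries, were sought among 12044 genes, as Pearson's r of log2(CPM + 10). The points of a library share its preparation and those of a population its cell type, so r is a description. Cdk4 had the closest neighbours, H2afy2, Cdk2ap1 and Ewsr1, all with r of 0.96. Ccnd2 was most like H2afv, Hmgn5 and Hnrnpm (0.93 to 0.94). Ccnd3 was most like Wwtr1, Aldh2 and Id3 (0.91 to 0.93), Cdkn1a like Bnip2, Anxa3 and Trim47 (0.92 to 0.93), and Cdkn1c like Zfp503, Plxnd1 and Fam118a (0.87 to 0.90). Cdkn1b was closest to Hnrnph3 (0.90), Cdkn2c to Mfap4 (0.90), Ccnd1 to Pdia3 (0.87) and Cdkn2d to Nucks1 (0.84), the weakest of the 10.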

How the data were processed

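Single cells were prepared with the 10x Genomics 3′ v3 chemistry, and per the labels the reads were processed with Cell Ranger 3.0.2 on the mouse genome (mm10). The deposited tables hold UMI counts, raw and not normalised by the authors, for 31053 genes in 3086 and 5081 barcodes, 1 table for each condition. Each table was assigned to its condition by the cells listed for it: 356 of 356 barcodes listed for Control were in the Control table and none in the other. How many animals entered each pool is not given by the tables, and the labels and the study's methods differ on it.

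Barcodes were kept where 200 or more genes were detected and the UMI total lay no further than 3 median absolute deviations from the median. Both libraries were integrated and clustered with Seurat 5.3.0 (R 4.3.3) on 2000 variable genes without Malat1 and the 10 members, at resolution 3, and lineage cells again at resolution 0.8. Each cluster took the class with the highest mean level of its markers. Clusters with few UMIs and no marker among their top genes, or with more markers of another class there, stayed unnamed. So did a cluster led by fibroblast matrix genes and one led by hemoglobin genes, an exception made after the clusters were seen. Doublets were called with Scrublet (scanpy 1.11.5), 40 cells in Control and 110 in TBI, and were kept, with their removal as an alternative.

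UMIs were summed for each population and library and divided by the total without Malat1 (CPM). Intervals are exact Poisson for levels, Clopper-Pearson for shares and conditional binomial for ratios, at 95%. A sum of 0 was set to 3 counts in ratios. Genes under 50 UMIs in a comparison were left out. The ratios and their intervals were run on simulated Poisson counts. The intervals held the set ratio for 95.8% of genes with the radial-glia-like profile and 96.5% with the mural profile. The simulation used the model that the intervals assume and had no spread between cells. It therefore cannot show how the intervals perform where UMIs lie in few cells. Named genes are the members, Ccne1, Ccne2, Cdk2, Rb1, Rbl1, E2f1, the leading genes of each list and the nearest patterns of the members, up to 3 each, those of Cdk6 not being reported here. The members and lists were chosen with earlier results of these data known, and no comparison has a test.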

Additional observations from a re-analysis of the deposited data

How the results depend on the processing

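No paired analysis was possible because the numbered animals of each condition were pooled before sequencing and cells could not be assigned to animals. For the same reason no replicate could be left out. Of the levels of the 10 members by population and library, that of Ccnd2 in radial-glia-like cells over both libraries, 3343 CPM, moved beyond its counting interval: it was 3418 with at most 10% mitochondrial UMIs, 3421 without doublets, 3398 without integration, 3409 at resolution 1.2 and by the highest marker score of each cell, 3280 with Malat1 in the total, 4203 without mitochondrial, ribosomal and hemoglobin genes, and 3243 as a mean over cells. The Ccnd2 share of D cyclin UMIs there was 95.2% and became 94.6% by the highest marker score. The Ccnd1 share after thinning was 17.3% at 2000 UMIs and 11.3% at 1000 UMIs. The 3 calls between TBI and Control became 5 without doublets and 5 without integration, 7 as a mean over cells, 1 without the mural cluster led by Acta2 and 0 at 2-fold, where 2-fold is a stricter line by construction. The share of all genes called under these alternatives is not given here, so the counts cannot be read as more or less change in the members. Cdkn1a in mural cells turned from a log2 difference of -0.90 to 0.50 without that cluster, an alternative added after seeing the data, as were those without the other mural clusters and without the astrocyte cluster led by Ttr. For single genes, 1609 other values stayed within the counting interval of the value reported and 76 left it. The cause of these shifts was not tested. Late neuroblasts numbered 867, and 380 at resolution 1.2, where more cells stayed unnamed. Among the unnamed was a cluster of 406 cells led by Ebf1, whose markers were nearest to early neuroblasts. In the main setting a cluster of 452 cells led by Ebf1 was counted with the late neuroblasts. With 1 library for each condition, differences between animals cannot be told apart from differences between conditions, and genes such as Ccnd1 in stem-like astroglia rest on 17 and 4 UMIs.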
